A study of Homo sapiens with 6 samples.

Results

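The genes described are 191 solute carrier (SLC) transporters of THP-1 macrophages. They were chosen as the gene symbols of the form SLC, family number, letter and member number whose estimated counts summed to 100 or more over the 6 libraries, leaving out SLC36A1, SLC36A4, SLC38A9, SLC2A1, SLC2A3, SLC7A11 and SLC9A3R1. Of 241 symbols of that form in a table of 17042 genes, 197 reached the summed count, 44 did not, and 6 of the 197 were left out by name. The count limit used the level over all libraries and not the difference between groups. The 7 named genes were left out by name and not by level, so the counts below do not cover them. Just outside the limit were SLC1A2 and SLC25A34 with 92 counts each and SLC35G2 with 65, and just inside it were SLC26A7 with 100, SLC35G1 with 104 and SLC27A5 with 107.

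THP-1 is a human monocytic leukaemia cell line. Polyadenylated RNA was sequenced from 3 libraries of RP11-184M15.1 knockdown cells, in which small interfering RNA (siRNA) against this long noncoding RNA was carried in by a lipid reagent ahead of IL-4, and from 3 control libraries. The genotype of the controls is given as WT, and the labels do not say what they were transfected with. Both groups were matured with PMA, a phorbol ester, at 100 ng/mL over 24 hours, and both then spent 24 hours in interleukin-4 (IL-4) at 20 ng/mL, so no library here lacks IL-4. No source used here says that the replicates were separate cultures or how many siRNAs were used, so the p-values rest on variation among these 6 libraries that may be only technical.

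Library totals ran from 12029360 to 14181343 counts in the knockdown libraries and from 10450043 to 12113848 in the controls. No row is named RP11-184M15.1, and its level under that name is therefore not analysed here. All 10 macrophage and monocyte markers, CD68, CSF1R and TYROBP among them, were measured, with a summed level of 5190 to 5390 CPM (counts scaled to library size) in knockdown and 5170 to 5530 CPM in control libraries, and 2 of them rose (CD14 and CD163) and 1 fell (LYZ). Of 5 T cell markers 1 was listed, at 0 to 0.246 CPM in knockdown and 0.0962 to 0.419 CPM in control libraries. The 5 B cell markers summed to 6.0 to 7.61 CPM in knockdown and 5.86 to 6.62 CPM in controls, and the 5 fibroblast markers to 6.97 to 8.28 CPM in knockdown and 4.52 to 7.41 CPM in controls. Epithelial and endothelial markers summed to at most 1.54 CPM in any library. Knockdown replicate 3 held 14.9 CPM of erythroid transcripts, all from the globins HBB and HBA1, where ALAS2 and KLF1 were not listed and the other libraries held at most 0.162 CPM. Mitochondrially encoded mRNA had a median log2 fold change of -0.16, with 12 of 13 genes below 0 and 1 that fell, and summed to 20100 to 20800 CPM in knockdown and 19200 to 25600 CPM in control libraries. Cytosolic ribosomal protein genes had a median of -0.09, with 70 of 79 below 0 and 1 that fell, and summed to 33300 to 34300 CPM in knockdown and 33500 to 38200 CPM in controls. Their part in the results below was not tested. In these bulk libraries fewer cells of a kind and less RNA per cell cannot be told apart.

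Solute carriers move small molecules across membranes. Some sit in the plasma membrane and bring in amino acids, sugars and metal ions or let lactate out, others serve lysosomes, the Golgi and mitochondria, and many couple one solute to a gradient of sodium ions or protons. Macrophages use them to recycle iron and haem, to withhold or deliver zinc, copper and manganese, to supply arginine to its competing enzymes and to export the lactate of glycolysis. The members were grouped here by family number into 12 classes of substrate.

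Most SLC transcripts lay near their control level in the knockdown cells. Of 191 members, all tested, 5 rose and 3 fell at an adjusted p under 0.05 in edgeR's quasi-likelihood test, or 4.19%. Among all 13405 genes tested, 2.83% passed in either direction, 1.22% higher and 1.61% lower. Of the members 2.62% were higher and 1.57% lower. The lower share is thus near the background. The higher share is above it but rests on 5 genes, so nothing is drawn from it. SLC31A2, SLC39A8, SLC31A1, SLC20A1 and SLC17A5 were higher in knockdown, and SLC16A1, SLC39A10 and SLC30A1 were lower. The count depended on the libraries: with 1 left out it ran from 3 to 10. It was 3 without knockdown replicate 1 or 2, 4 without knockdown replicate 3 and 5 without control replicate 2. SLC16A1, SLC31A2 and SLC39A10 passed in all 6 of these fits.

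**Figure D1:**
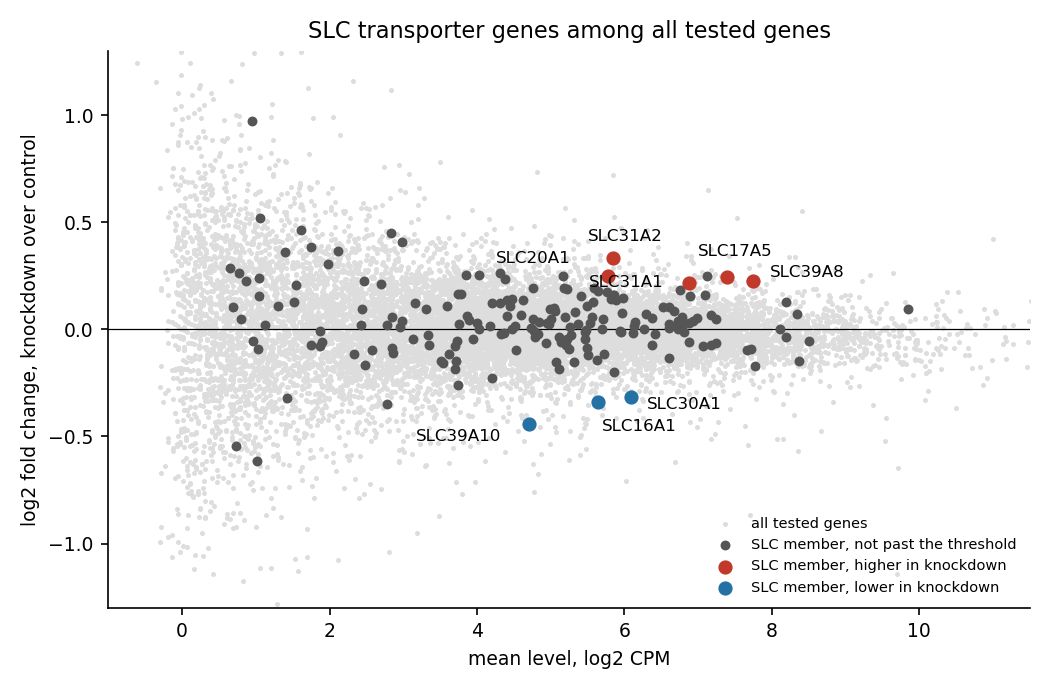
Log2 fold change (knockdown over control) against the mean level in log2 CPM. Grey points are all tested genes, dark points SLC members, and red and blue points the 5 members that were higher and the 3 that were lower in knockdown past an adjusted p of 0.05. The 8 coloured members lie above a log2 CPM of 4, between -0.44 and 0.33, and 52 genes, none of them a member, fall beyond the axes.

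The sizes were small. The median absolute log2 fold change was 0.09 both for the members and for all tested genes, 103 members lay within 0.1 of 0, and 4 reached 0.5 in size. The signed median was 0.03 for the members and 0.00 for all genes. Of the members 119, or 62.3%, lay above 0, against 49.4% of all genes. At an unadjusted p under 0.05, 29 members were higher and 16 lower. The higher ones were 15.2% of members against 6.89% of all genes, and the lower ones 8.38% against 8.21%. The 3 knockdown libraries lay wholly apart from the 3 controls in 47 members, or 24.6%, against 20.0% of all genes. In 30 of them, or 15.7% against 9.61% of all genes, the knockdown libraries were the higher ones, and in 17, or 8.9% against 10.4%, the lower ones. Together the members took 1.104%, 1.125% and 1.113% of the counts in the knockdown libraries and 1.044%, 1.068% and 1.092% in the controls. On the TMM-scaled CPM used for all other values they summed to 10930, 11190 and 11000 CPM in knockdown and 10610, 10840 and 10980 CPM in control libraries, where the groups overlapped.

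**Figure D2:**
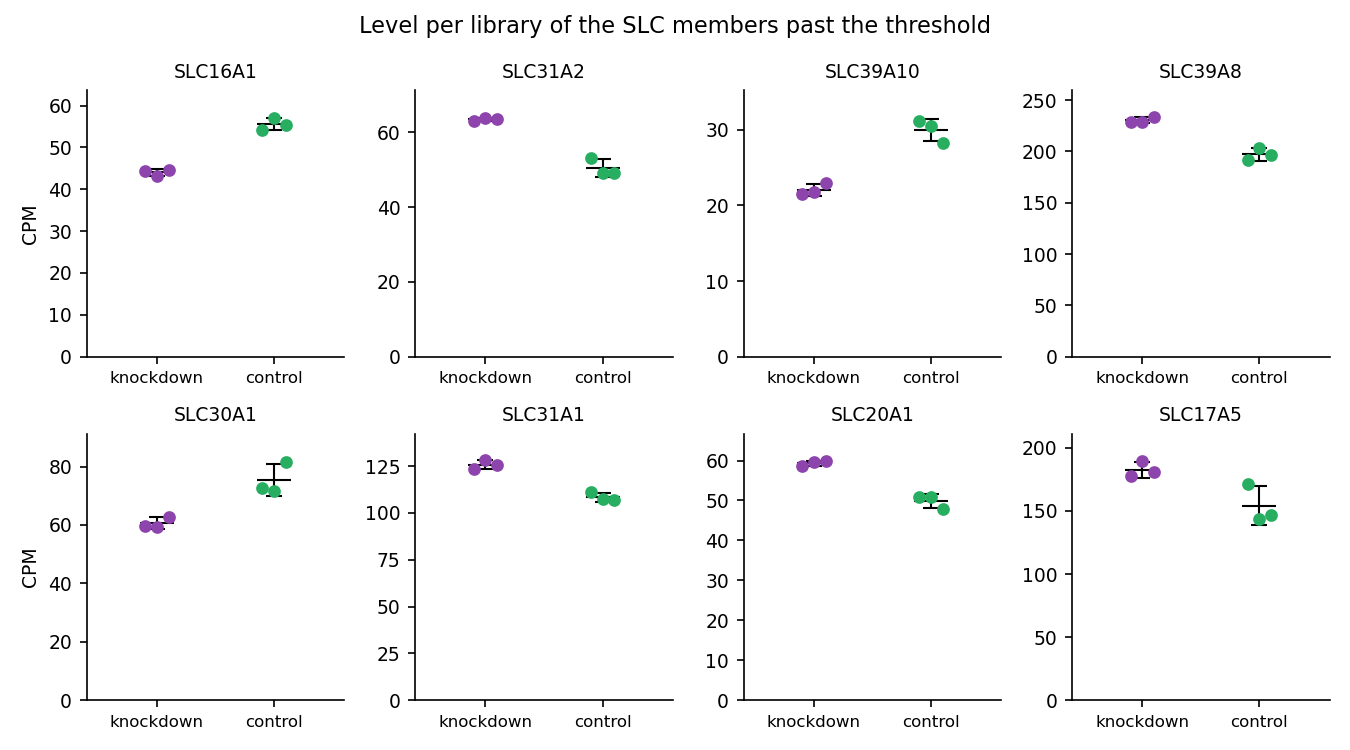
CPM of each of the 8 members past the threshold in the 3 knockdown libraries (left in each panel) and the 3 control libraries (right), with the group mean and its SD. Every axis starts at 0, and in each panel the groups do not overlap, with SLC17A5 coming closest, at 177 CPM in the lowest knockdown and 172 CPM in the highest control library.

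The carriers of transition metals and haem held 5 of the 8 members that passed. Of 22 such members 3 rose and 2 fell, where 1.22% of all tested genes were higher and 1.61% lower, and the median of the group was -0.01. The class was singled out with these calls known, so nothing particular to it is drawn from the count. They fall into importers of zinc into the cytosol (SLC39), exporters of zinc out of it (SLC30), copper carriers (SLC31), iron and manganese carriers (SLC11) and the haem carrier SLC48A1. The count of metal carriers that passed stayed at 5 when control replicate 1 or 3 was left out. It was 4 without control replicate 2, 2 without knockdown replicate 1 or 2 and 3 without knockdown replicate 3.

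Both copper carriers rose. SLC31A2, a relative of the main importer found on late endosomes and lysosomes (ENSG00000136867.10; GRCh38 chromosome 9, 113150942 to 113164137, plus strand), was at 63.1, 63.9 and 63.6 CPM in the knockdown libraries and 53.2, 49.2 and 49.1 CPM in the controls. Its level was higher in every knockdown library than in any control (log2 fold change 0.33 ± 0.06 SE, edgeR adjusted p = 0.00416). SLC31A1, the high-affinity copper importer of the plasma membrane (ENSG00000136868.10; chromosome 9, 113221562 to 113264492, plus strand), was at 123, 128 and 126 CPM in knockdown and 111, 107 and 107 CPM in control libraries. The libraries again did not overlap (log2 fold change 0.21 ± 0.05 SE, edgeR adjusted p = 0.0208), but the adjusted p was 0.0704, 0.131 and 0.102 without knockdown replicates 1, 2 and 3 and 0.11 without control replicate 2. The copper carriers are neighbours, 57424 bases apart in the annotation. Each overlaps another gene on the opposite strand, FKBP15 for SLC31A2 (log2 fold change 0.01) and CDC26 for SLC31A1 (0.04). The copper chaperone ATOX1 had a log2 fold change of 0.12 (edgeR adjusted p = 0.416).

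Zinc carriers moved in both directions. SLC39A10, which brings zinc into the cytosol (ENSG00000196950.13; chromosome 2, 195575977 to 195737702, plus strand), was at 21.5, 21.8 and 22.9 CPM in knockdown and 31.2, 30.5 and 28.3 CPM in control libraries. Each knockdown library was below each control (log2 fold change -0.44 ± 0.08 SE, edgeR adjusted p = 0.00427), and this was the largest change in size among the 8 members. SLC30A1, the plasma membrane exporter that protects cells from excess zinc (ENSG00000170385.9; chromosome 1, 211571568 to 211578742, minus strand), was at 59.8, 59.1 and 62.8 CPM in knockdown against 72.7, 71.7 and 81.7 CPM in controls. It also fell without overlap (log2 fold change -0.31 ± 0.06 SE, edgeR adjusted p = 0.00995), with an adjusted p of 0.0526 and 0.0866 without knockdown replicates 1 and 2. SLC39A8, an importer of zinc and manganese that inflammatory signals induce in monocytes (ENSG00000138821.12; chromosome 4, 102251041 to 102431258, minus strand), was at 229, 229 and 234 CPM in knockdown and 191, 203 and 196 CPM in controls. It rose in all knockdown libraries over all controls (log2 fold change 0.23 ± 0.04 SE, edgeR adjusted p = 0.00985), with an adjusted p of 0.0526, 0.058 and 0.0811 without knockdown replicates 1, 2 and 3. So among the zinc carriers that passed, 1 importer rose, 1 importer fell and 1 exporter fell.

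SLC30A1 is a textbook target of the zinc sensor MTF1, which binds metal response elements. The RefSeq promoter windows (GRCh38.p14, 250 bases before to 50 after a start) of the zinc carriers past the threshold and of the copper importer are shown, to set that element beside members that fell and members that rose. The core was searched as TGCACNC and TGCGCNC on both strands, forms that differ in the fourth letter and cannot match the same bases in the same reading. Capitals mark each match. SLC39A10 has another listed start just upstream, with no match, and both of its windows lie within the annotated gene. SLC39A8 has 3 listed windows, of which the only one with a match is printed, and these too lie within the annotated gene. The SLC30A1 window lies wholly upstream of the annotated gene. The windows are chr1:211579112-211579411 (minus strand) for SLC30A1, chr2:195656976-195657275 (plus strand) for SLC39A10, chr4:102345433-102345732 (minus strand) for SLC39A8 and chr9:113221294-113221593 (plus strand) for SLC31A1.
SLC30A1: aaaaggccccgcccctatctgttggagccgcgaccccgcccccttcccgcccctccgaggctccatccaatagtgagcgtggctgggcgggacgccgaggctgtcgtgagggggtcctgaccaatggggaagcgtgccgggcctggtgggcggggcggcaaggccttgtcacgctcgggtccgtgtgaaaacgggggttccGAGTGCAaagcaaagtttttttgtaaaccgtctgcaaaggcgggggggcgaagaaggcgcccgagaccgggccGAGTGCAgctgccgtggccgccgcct
SLC39A10: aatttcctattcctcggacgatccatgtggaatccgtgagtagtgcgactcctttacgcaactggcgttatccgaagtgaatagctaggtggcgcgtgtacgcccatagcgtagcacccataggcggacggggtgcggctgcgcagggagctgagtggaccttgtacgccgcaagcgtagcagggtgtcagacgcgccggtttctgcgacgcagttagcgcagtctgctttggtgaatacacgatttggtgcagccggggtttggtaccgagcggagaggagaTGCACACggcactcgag
SLC39A8: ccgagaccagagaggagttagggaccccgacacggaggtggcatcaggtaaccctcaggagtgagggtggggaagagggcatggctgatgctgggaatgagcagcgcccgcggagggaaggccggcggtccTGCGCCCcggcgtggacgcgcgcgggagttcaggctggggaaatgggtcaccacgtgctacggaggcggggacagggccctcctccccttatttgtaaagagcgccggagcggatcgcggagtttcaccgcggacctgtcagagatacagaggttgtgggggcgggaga
SLC31A1: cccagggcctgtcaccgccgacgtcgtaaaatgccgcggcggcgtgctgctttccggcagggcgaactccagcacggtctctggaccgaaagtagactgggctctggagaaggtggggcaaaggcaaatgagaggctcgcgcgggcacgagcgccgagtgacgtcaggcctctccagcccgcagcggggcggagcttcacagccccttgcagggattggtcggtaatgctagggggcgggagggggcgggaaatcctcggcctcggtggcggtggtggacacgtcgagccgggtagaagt
No window was available for SLC16A1, which fell, or for SLC31A2, which rose, so neither was searched. Among the other members that fell, the SLC30A1 window held 2 matches and the printed SLC39A10 window 1. Among the other members that rose, SLC39A8 held 1 match in 1 of its 3 windows and SLC17A5 held 1, while SLC31A1 and SLC20A1 held 0. Matches were thus found in members of both directions. A match to either form was in 29.6% of 35116 promoter windows and in 90 of 237 windows of 154 members, so it is common, and windows of 1 gene overlap. MTF1 itself had a log2 fold change of 0.13 (edgeR adjusted p = 0.175). None of the 14 tested genes in the list of metal and haem response genes, MTF1 among them, was past the threshold. At an unadjusted p under 0.05, 4 of these genes were higher and 2 lower, where 6.89% of all tested genes were higher and 8.21% lower. Their summed level, mostly ferritin, was 25900 to 27000 CPM in knockdown and 27200 to 29500 CPM in control libraries. Metallothioneins, the zinc and copper buffers of the cytosol, were scarce. MT2A averaged 2.88 ± 0.84 CPM in knockdown and 2.00 ± 0.61 CPM in control libraries (SD, n = 3 each). MT1E was at 2.997, 3.016 and 2.217 CPM in knockdown and 1.039, 1.675 and 2.117 CPM in controls, without overlap. The tested metallothioneins MT1E, MT2A, MT1F and MT1X all lay above 0, at 0.77, 0.55, 0.21 and 0.13. None of them passed (edgeR adjusted p = 0.19 for MT1E), and MT1G was not tested.

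**Figure D3:**
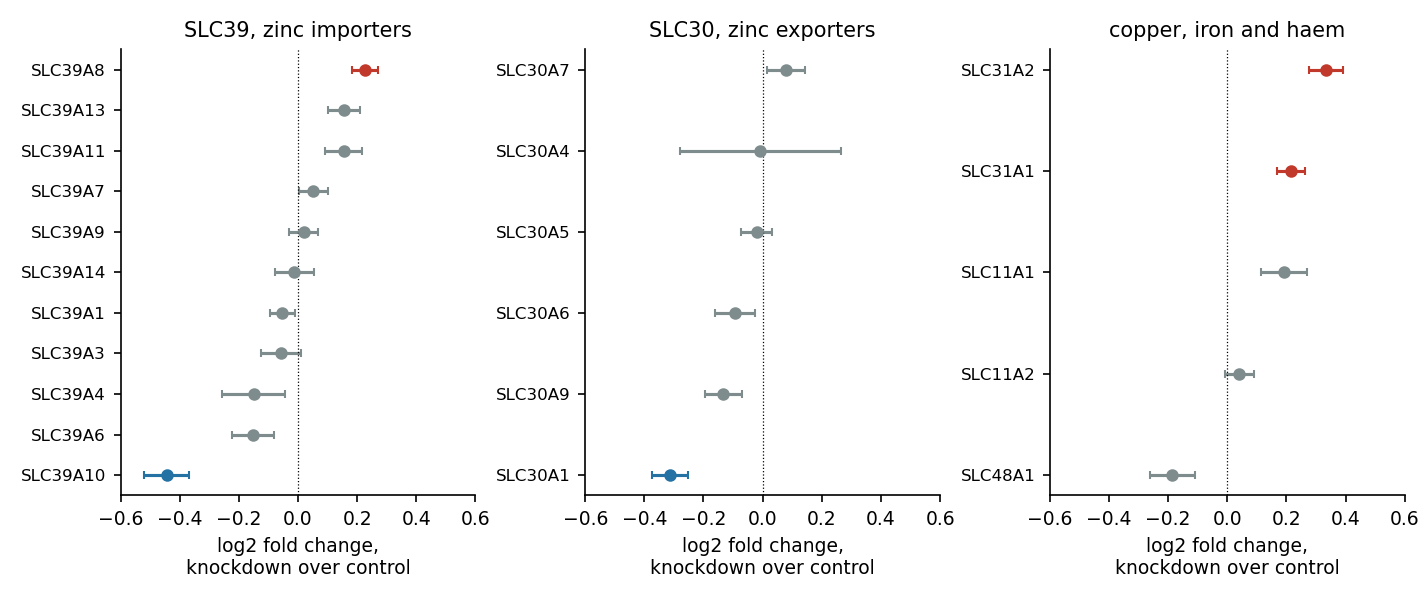
Log2 fold change (knockdown over control) ± SE of the 22 metal and haem carriers, split into zinc importers, zinc exporters, and copper, iron and haem carriers. Red marks members higher and blue members lower in knockdown past the threshold, and both SLC31 carriers stand to the right of 0 while SLC39A10 and SLC30A1 stand at the left end of their panels.

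The other metal carriers lay between -0.19 and 0.19 in log2 fold change. SLC11A1, the iron and manganese carrier of phagosomes, was at 40.5, 38.8 and 35.6 CPM in knockdown against 32.5, 36.6 and 31.3 CPM in controls, and its libraries overlapped (log2 fold change 0.19, edgeR adjusted p = 0.237). SLC48A1, which lets haem out of the phagolysosome after red cells are digested, had a log2 fold change of -0.19 (edgeR adjusted p = 0.241). SLC39A1, the zinc importer with the highest CPM among the metal carriers, averaged 357 ± 2.67 CPM in knockdown and 370 ± 10.2 CPM in control libraries (log2 fold change -0.05). Its libraries did not overlap (edgeR adjusted p = 0.62). Of the remaining SLC39 importers, SLC39A13 (0.16), SLC39A11 (0.15) and SLC39A6 (-0.15) had libraries that did not overlap, with edgeR adjusted p of 0.151, 0.245 and 0.323. With those that passed, 6 of 11 SLC39 members had libraries apart, against 24.6% of all SLC members and 20.0% of all tested genes. The family was chosen with its values known, so nothing particular to it is drawn from this count. In the SLC30 family 5 of 6 exporters lay below 0, from -0.31 for SLC30A1 to -0.01 for SLC30A4, and SLC30A7, a carrier into the secretory pathway, was at 0.08.

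The monocarboxylate carriers of the SLC16 family had 1 member of 9 that fell and none that rose. Among all tested genes 1.61% were lower and 1.22% higher. The family was taken up because SLC16A1 had passed, so nothing particular to it is drawn from this count. SLC16A1 (MCT1), which moves lactate, pyruvate and ketone bodies with a proton (ENSG00000155380.11; chromosome 1, 112911847 to 112957013, minus strand), was at 44.3, 43.1 and 44.6 CPM in knockdown and 54.1, 57.1 and 55.4 CPM in control libraries. The groups stood apart (log2 fold change -0.34 ± 0.06 SE, edgeR adjusted p = 0.00416), and the adjusted p stayed at or under 0.0423 with any 1 library left out. An antisense transcript, SLC16A1-AS1, lies across it (log2 fold change 0.12, edgeR adjusted p = 0.871). SLC16A3 (MCT4), the lactate exporter of glycolytic cells, was at 925, 999.6 and 941 CPM in knockdown and 862, 901 and 920 CPM in controls. Its libraries did not overlap, but it did not pass (log2 fold change 0.09, edgeR adjusted p = 0.342).

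Basigin (BSG), the chaperone that carries both of these lactate transporters to the cell surface, is one of 20 partner proteins listed, 11 of which were tested. It was at 399, 421 and 391 CPM in knockdown and 525, 505 and 504 CPM in control libraries. Like SLC16A1 it was lower in every knockdown library than in any control (log2 fold change -0.34 ± 0.04 SE, edgeR adjusted p = 0.000511), and it passed with any 1 library left out. Of its relatives, embigin (EMB) had a log2 fold change of 0.01 and neuroplastin (NPTN) of 0.18 (edgeR adjusted p = 0.0905). OSTM1 was the other partner that fell (log2 fold change -0.49, edgeR adjusted p = 0.0005). It forms a complex with a lysosomal chloride exchanger and was listed although that exchanger is no SLC carrier. No partner rose. For comparison, 1.22% of all tested genes were higher and 1.61% lower. The partner list was chosen with earlier results of these data known, so nothing particular to it is drawn from these counts. Whether the falls of BSG and SLC16A1 are linked was not tested.

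**Figure D4:**
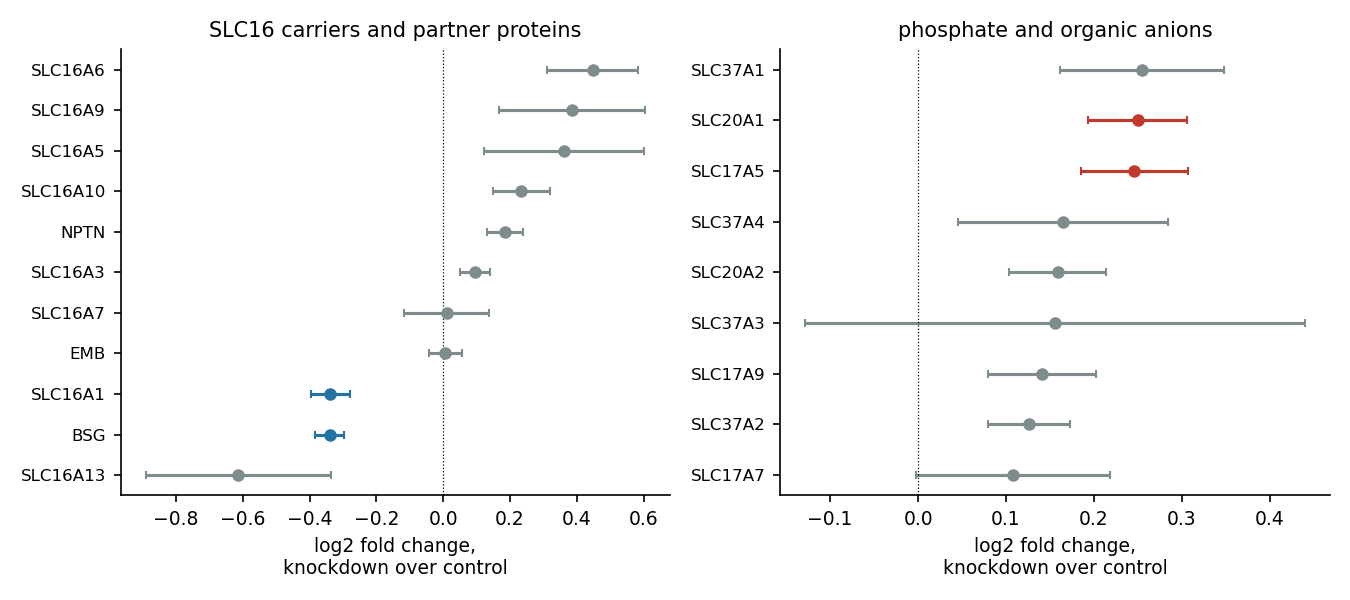
Log2 fold change (knockdown over control) ± SE, at left of 8 SLC16 carriers with basigin, embigin and neuroplastin, and at right of the 9 carriers of phosphate and organic anions. SLC16A1 and BSG sit side by side at -0.34, and all 9 carriers at right lie above 0, from 0.11 to 0.25.

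None of the other SLC16 members passed. SLC16A6 averaged 7.94 ± 0.64 CPM in knockdown and 5.82 ± 0.47 CPM in control libraries (SD, n = 3 each; log2 fold change 0.45, edgeR adjusted p = 0.102). SLC16A10, a carrier of aromatic amino acids, was at 21.2, 23.4 and 21.8 CPM in knockdown and 19.3, 19.7 and 17.5 CPM in controls (log2 fold change 0.23, edgeR adjusted p = 0.188). SLC16A13 had the most negative log2 fold change of all members, -0.61, at only 1.48 CPM in knockdown and 2.29 CPM in controls (edgeR adjusted p = 0.304). SLC16A9, SLC16A5 and SLC16A7 lay between 0.01 and 0.39 with edgeR adjusted p of 0.444 and above.

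The class of phosphate and organic anions joins the phosphate importers of family SLC20, the sugar-phosphate exchangers of SLC37 and the vesicular and lysosomal anion carriers of SLC17, not all of which carry phosphate. All 9 members had a log2 fold change above 0, against 62.3% of all SLC members and 49.4% of all tested genes. Their median was 0.16. Of the 9, 2 rose past the threshold, 1 from SLC20 and 1 from SLC17, where 1.22% of all tested genes were higher. This class too was singled out with its values known, so nothing particular to it is drawn from these counts. SLC20A1 (PiT-1), a sodium-coupled phosphate importer that also serves as a retroviral receptor (ENSG00000144136.10; chromosome 2, 112645857 to 112663827, plus strand), was at 58.6, 59.6 and 59.9 CPM in knockdown and 50.9, 50.8 and 47.9 CPM in control libraries. It rose without overlap (log2 fold change 0.25 ± 0.06 SE, edgeR adjusted p = 0.0264). That adjusted p ran from 0.0162 to 0.124 with 1 library left out and was under 0.05 only without control replicate 1. Its relative SLC20A2 was at 61.1, 61.8 and 59.7 CPM in knockdown and 54.5, 53.4 and 55.7 CPM in controls, also apart but not past the threshold (0.16, edgeR adjusted p = 0.154).

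SLC17A5 (sialin), which lets sialic acid out of lysosomes (ENSG00000119899.12; chromosome 6, 73593379 to 73654155, minus strand), was at 177, 189 and 181 CPM in knockdown and 172, 144 and 147 CPM in control libraries. Control replicate 1 lay close to the knockdown libraries (log2 fold change 0.25 ± 0.06 SE, edgeR adjusted p = 0.0414). Its adjusted p was 0.000238 without that control, between 0.0746 and 0.235 without any other single library, and 0.0522 with no filter on low counts. The remaining members, none past the threshold, were SLC37A1 (0.25), SLC37A4, the glucose-6-phosphate carrier of the endoplasmic reticulum (0.16), SLC37A3 (0.16), SLC17A9, the vesicular nucleotide carrier (0.14), SLC37A2 (0.13) and SLC17A7, a vesicular glutamate carrier (0.11). SLC37A2, a sugar-phosphate exchanger, averaged 305 ± 14.1 CPM in knockdown and 279 ± 7.99 CPM in controls (SD, n = 3 each).

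**Figure D5:**
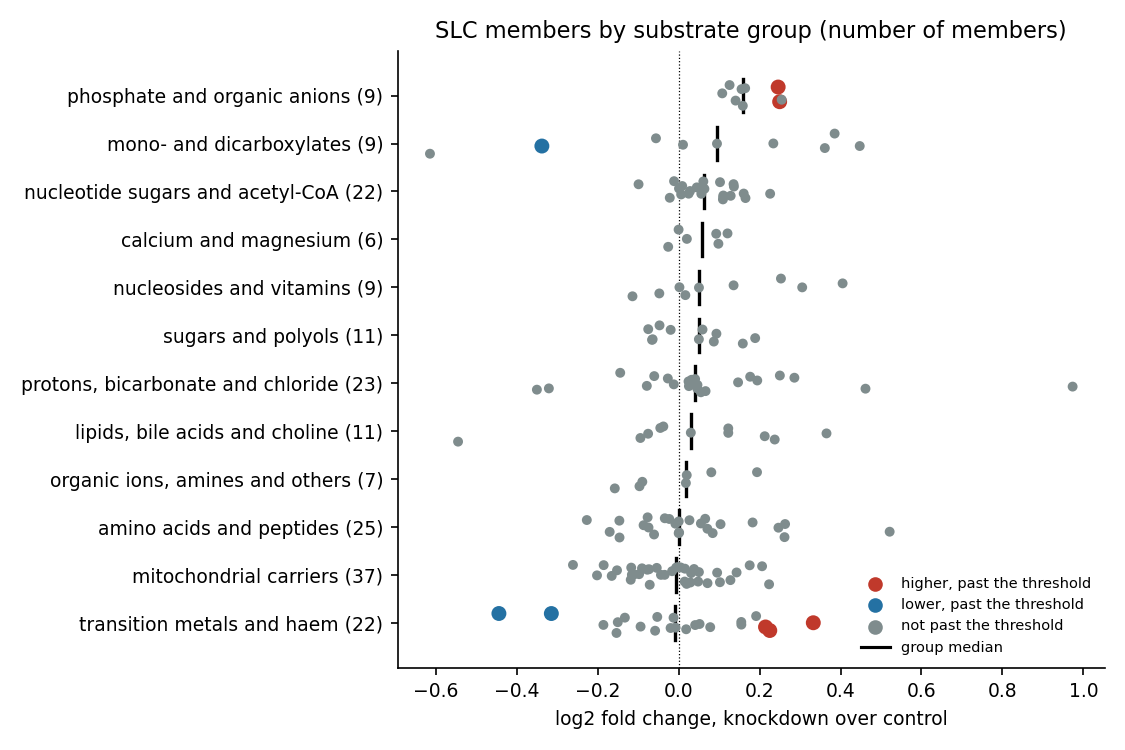
Log2 fold change (knockdown over control) of all 191 members by class of substrate, with the number of members in brackets, each class's median as a black bar, and members past the threshold in red (higher) or blue (lower). The 5 coloured members of the metal class spread to both sides of 0, while the class of phosphate and organic anions lies wholly to the right of it.

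None of 25 amino acid and peptide carriers passed, and their median was 0.00. SLC1A3, a glutamate and aspartate importer, came closest, at 147, 155 and 149 CPM in knockdown and 143, 120 and 116 CPM in controls (log2 fold change 0.25 ± 0.07 SE, edgeR adjusted p = 0.0577). SLC1A3 passed in DESeq2 (adjusted p = 0.0193), with the replicate block (0.036) and without control replicate 1 (0.000215). SLC6A6, the taurine importer, was at 206, 210 and 199 CPM in knockdown and 238, 233 and 222 CPM in controls (log2 fold change -0.17 ± 0.05 SE, edgeR adjusted p = 0.0592). SLC6A6 likewise passed in DESeq2 (adjusted p = 0.0416), with the replicate block (0.0404) and without control replicate 3 (0.0264). In both genes the libraries of the groups stood apart. SLC43A2, a facilitative carrier of branched-chain amino acids and phenylalanine, averaged 314 ± 6.55 CPM in knockdown and 347 ± 17.3 CPM in controls (-0.15, edgeR adjusted p = 0.119). SLC7A2, an arginine importer of alternatively activated macrophages in mice, was at 21.4 ± 1.16 CPM in knockdown and 17.8 ± 0.11 CPM in controls (0.26, edgeR adjusted p = 0.123).

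The exchanger of large neutral amino acids, made of the light chain SLC7A5 and the heavy chain SLC3A2, lay close to its control level. SLC7A5 averaged 98.2 ± 6.69 CPM in knockdown and 96.5 ± 10.5 CPM in control libraries (SD, n = 3 each; log2 fold change 0.03 ± 0.07 SE), and SLC3A2 averaged 288 ± 5.79 CPM in knockdown and 295 ± 13.6 CPM in controls (-0.03 ± 0.05 SE). SLC38A2, the amino acid importer that starvation induces, was at 106, 112 and 127 CPM in knockdown and 96.2, 99.0 and 109 CPM in controls, where the groups overlapped (0.18, edgeR adjusted p = 0.174). In the amino acid response led by the transcription factor ATF4, which induces several of these carriers, 1 of 26 genes rose, SESN2 (0.29, edgeR adjusted p = 0.0498), and 1 fell, ALDH18A1, an enzyme of proline synthesis (-0.62, edgeR adjusted p = 0.0157). Among all tested genes 1.22% were higher and 1.61% lower. Of the 26 genes 21 lay above 0, with a median of 0.087. At an unadjusted p under 0.05, 8 were higher and 1 lower, where 6.89% of all tested genes were higher and 8.21% lower. With 1 library left out the adjusted p ran from 0.0583 to 0.248 for SESN2 and from 0.0027 to 0.0988 for ALDH18A1.

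Mitochondrial carriers of the SLC25 family were the largest class, with 37 members, none past the threshold, a median of -0.01 and 17 above 0. SLC25A32, the carrier that takes folate or FAD into mitochondria, had the smallest p. It was at 54.4, 51.8 and 56.6 CPM in knockdown and 62.1, 58.5 and 66.6 CPM in control libraries, apart but not past the threshold (log2 fold change -0.20 ± 0.06 SE, edgeR adjusted p = 0.113). SLC25A13 (citrin), an aspartate and glutamate exchanger, had a log2 fold change of -0.26 (edgeR adjusted p = 0.207). SLC25A5, an ADP/ATP carrier, averaged 197 ± 4.18 CPM in knockdown and 210 ± 8.89 CPM in controls (-0.10, edgeR adjusted p = 0.333), and SLC25A3, the phosphate carrier, was at 325, 342 and 328 CPM in knockdown and 307, 314 and 326 CPM in controls (0.07, edgeR adjusted p = 0.485). Members of the ADP/ATP carrier family share sequence with each other and with pseudogenes, so the split of reads between them is uncertain.

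Carriers of protons, bicarbonate and chloride had 23 members, none past the threshold, and a median of 0.04. SLC12A4, a potassium-chloride cotransporter that lowers cell volume, was at 39.53, 39.42 and 37.03 CPM in knockdown and 32.31, 34.67 and 30.41 CPM in controls (log2 fold change 0.25 ± 0.07 SE, edgeR adjusted p = 0.0761). Its knockdown libraries all lay above the controls. SLC4A4, a sodium bicarbonate cotransporter, had the largest log2 fold change of any member, 0.97 ± 0.33 SE, on 25, 36 and 28 counts in knockdown and 11, 8 and 19 counts in control libraries (edgeR adjusted p = 0.147). Without control replicate 3 its log2 fold change was 1.43 (adjusted p = 0.0396).

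The remaining classes held no member past the threshold. Nucleotide-sugar and acetyl-CoA carriers, which feed glycosylation and acetylation in the secretory pathway, had 19 of 22 members above 0 but a median of only 0.06. SLC33A1, the acetyl-CoA carrier of the endoplasmic reticulum, led them at 58.97, 59.70 and 62.24 CPM in knockdown and 54.70, 50.50 and 56.78 CPM in control libraries (log2 fold change 0.16, edgeR adjusted p = 0.198). SLC35E2 has a near-identical copy, SLC35E2B, and its reads may be split. Among 11 sugar and polyol carriers (median 0.05) SLC45A4 had the smallest p (0.19, edgeR adjusted p = 0.226). Among 9 nucleoside and vitamin carriers (median 0.05) it was SLC23A2, a vitamin C importer (0.14, edgeR adjusted p = 0.271). The smallest p among 11 carriers of lipids, bile acids and choline was that of the choline carrier SLC44A1, at -0.09 (edgeR adjusted p = 0.3). SLC41A3 led the 6 calcium and magnesium carriers (0.12, edgeR adjusted p = 0.591) and SLC22A18 the 7 carriers of organic ions (0.19, edgeR adjusted p = 0.301).

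Levels were compared between genes per length, as CPM per kilobase of the longest coding transcript in GENCODE 29, which 190 of the 191 members have. This length is a stand-in, since the isoforms expressed are not known. On this scale SLC16A3 was highest at 198 ± 8.13 in knockdown and 185 ± 6.18 in control libraries (SD, n = 3 each). SLC25A5 followed at 154 ± 3.28 in knockdown and 165 ± 6.97 in controls, then SLC39A1 at 131 ± 0.98 in knockdown and 136 ± 3.75 in controls and SLC3A2 at 129 ± 2.61 in knockdown and 133 ± 6.12 in controls. SLC43A3, a purine nucleobase carrier, came next at 105 ± 3.15 in knockdown and 105 ± 5.12 in controls, and SLC16A1 was at 10.1 ± 0.175 in knockdown and 12.7 ± 0.342 in controls. SLC39A1 and SLC3A2 did not differ from each other beyond their spread. SLC39A1, SLC43A2, SLC25A3, SLC37A2 and SLC16A3 were the 5 members with the highest CPM, and none of them passed the threshold in the comparison.

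Other transporter genes were set beside the members. The share of all tested genes past the threshold was 1.22% higher and 1.61% lower. Of 29 tested ABC transporters 2 rose, the cholesterol exporter ABCA1 (log2 fold change 0.22, edgeR adjusted p = 0.0182) and ABCC6 (0.42, edgeR adjusted p = 0.0171), and none fell. Of 31 tested carriers of the SLC type under other symbols 2 rose and none fell. They were MFSD2A, a lysophospholipid importer, at 360.5 ± 6.50 CPM in knockdown and 295 ± 3.87 CPM in controls (SD, n = 3 each; 0.29, edgeR adjusted p = 0.000928), and FLVCR1, known as a haem and choline carrier (0.40, edgeR adjusted p = 0.0432). Of 22 subunits of the proton pump of lysosomes, V-ATPase, 1 fell, ATP6V1C1 (-0.23, edgeR adjusted p = 0.0284), and none rose. MFSD2A passed with any 1 library left out, whereas the highest adjusted p with 1 library left out was 0.132 for ABCA1, 0.134 for ABCC6, 0.226 for FLVCR1 and 0.184 for ATP6V1C1.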

How the data were processed

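The authors deposited 1 table of expected counts, whole numbers throughout, with 17042 gene symbols in rows, 6 libraries in columns and no row summing to under 10. The submitters' processing notes name Salmon 0.11.2 and DESeq2 as tools and hg38 as build without saying what each did. Rounding and strand are not given in the sources used here, so overlapping genes and close copies are less certain. Libraries were grouped by their titles.

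The deposited counts were tested whole with edgeR 4.0.16 quasi-likelihood (TMM, filterByExpr by group, which kept 13405 genes, a two-sided test of group alone, Benjamini-Hochberg over all tested genes, threshold 0.05). CPM uses the TMM factors, and 3 counts, the floor, came to 0.21 to 0.289 CPM. The SE is the log2 fold change divided by the square root of F. Alternatives were DESeq2 1.42.0, limma-voom (limma 3.58.1), RLE factors, no filter, at least 1 CPM in at least 3 libraries, the replicate block, each library left out and an adjusted p under 0.01. Other tools were R 4.3.3, Python 3.11.15, pandas 2.3.3, numpy 2.4.6 and matplotlib 3.10.9. Fits were first tested on simulated data.

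Members, families and lists were chosen with earlier results of these data known. Named were all members past the threshold with their families, the smallest p in each class, the 5 highest in CPM, the extremes of fold change and the members at the edge of the count limit. SLC6A6, SLC7A2, SLC7A5, SLC3A2, SLC38A2, SLC11A1, SLC48A1, SLC25A13, SLC25A5, SLC37A1, SLC37A3, SLC37A4, SLC35E2 and SLC43A3 were named after their values were seen. Some single genes are not reported here. Positions came from GENCODE 29 (GRCh38), which held 190 members by a unique name. Replicates of a group differed by more than sampling noise, with a chi-square of 1.90 to 6.79 for each degree of freedom (genes under 20 counts left out).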

Additional observations from a re-analysis of the deposited data

How the results depend on the processing

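The number of SLC members past the threshold was 8. With the replicate block it was 10 (6 higher, 4 lower), and it was 5 at an adjusted p under 0.01. DESeq2, limma-voom, RLE factors, no filter and the 1 CPM filter gave 7 to 10. Leaving out 1 library gave 3 to 10 members and 139 to 542 of all tested genes, against 379 with all libraries and 150 at an adjusted p under 0.01. The median log2 fold change of the members was 0.029, and 0.020 to 0.046 with 1 library left out. The replicate numbers are shared between the groups, but same-numbered libraries had correlations of deviations from the group mean of only 0.0464, 0.1 and 0.083, so they were not taken as pairs, although every library correlated best with its own number. With the block 488 of all tested genes passed.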

Other observations

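Traces of globin mRNA were found in 1 library. HBB was at 7.56 CPM and HBA1 at 7.31 CPM in knockdown replicate 3, and each was at or under 0.14 CPM in the other 5 libraries. Without that library 4 SLC members passed the threshold, 1 higher and 3 lower. With knockdown replicate 1 or 2 left out instead, 3 passed. Any part of the globin traces in these counts was not tested.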
